A study of Mus musculus with 6 samples.

Results

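The genes described here are Kdr, Flt1, Vegfa, Tek, Tie1, Pecam1, Cdh5, Eng, Emcn and Plvap, a growth factor and 9 proteins of the blood vessel wall, measured in whole adrenal glands. They were taken by name: every probe set whose platform annotation names exactly 1 gene, with that symbol among the 10, was used. This gave 16 of the 44935 probe sets in the table, and all 10 genes had at least 1. Flt1 had 4 probe sets, Vegfa, Cdh5 and Eng had 2 each, and the remaining 6 genes had 1.

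Glands came from male mice, 3 months old, on a mixed C57BL6 and 129Sv background, all of which carried Per2Brdm1 together with Cry1-/-, so no group in this comparison had an intact clock. The mice had been held under a light-dark cycle and then moved to constant darkness. The 3 arrays of the later time point were taken 54 h after lights off and the 3 of the earlier one 46 h after, an interval of 8 h. Wild-type glands were not analysed here, each array stands for 1 sample with no animal named, and the 3 samples of a time point are called replicates 1, B and C.

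The adrenal cortex is threaded by wide, fenestrated capillaries that collect steroids, and each cord of steroid-making cells lies against one. Vegfa is secreted largely by the parenchymal cells and acts on the receptors Kdr and Flt1 of the endothelium next to them. The Tie receptors and the TGF-beta coreceptor endoglin govern how stable a vessel is, while VE-cadherin (Cdh5) and Pecam1 hold neighbouring endothelial cells together. Plvap forms the diaphragms of fenestrae, and endomucin (Emcn) is a sialomucin of capillary and venous endothelium.

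The promoters of the 4 genes around which the results turn are shown: Vegfa and its receptors Kdr and Flt1, of which Kdr read lower on every 54 h array while Flt1 overlapped, and Eng, whose brightest probe set also read lower. Each is the 250 bases before the annotated start in the RefSeq table of GRCm38.p6, written 5′ to 3′ on the gene's own strand. Capitals mark matches, on either strand, to 5 short motifs: AGGAAG, a core bound by ETS factors; CCGGAA, another such core; AGATAA, bound by GATA factors; ACGTG, the core of hypoxia response elements; and a variant of that core, GCGTG.
Vegfa, chr17:46032378-46032627, minus strand: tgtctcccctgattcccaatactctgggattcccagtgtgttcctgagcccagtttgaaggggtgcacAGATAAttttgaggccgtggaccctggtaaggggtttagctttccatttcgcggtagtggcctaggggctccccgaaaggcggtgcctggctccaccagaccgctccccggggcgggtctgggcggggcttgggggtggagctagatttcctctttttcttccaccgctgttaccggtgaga
Kdr, chr5:75978456-75978705, minus strand: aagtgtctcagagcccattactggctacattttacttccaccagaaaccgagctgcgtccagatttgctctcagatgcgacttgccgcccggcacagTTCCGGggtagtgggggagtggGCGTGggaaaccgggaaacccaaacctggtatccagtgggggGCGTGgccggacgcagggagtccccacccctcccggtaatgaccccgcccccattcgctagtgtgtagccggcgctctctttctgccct
Flt1, chr5:147726012-147726261, minus strand: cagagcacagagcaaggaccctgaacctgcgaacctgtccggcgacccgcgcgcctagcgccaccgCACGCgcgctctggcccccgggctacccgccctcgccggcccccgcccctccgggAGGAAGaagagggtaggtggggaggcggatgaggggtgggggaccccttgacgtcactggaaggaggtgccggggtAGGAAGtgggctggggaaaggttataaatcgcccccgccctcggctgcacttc
Eng, chr2:32646345-32646594, plus strand: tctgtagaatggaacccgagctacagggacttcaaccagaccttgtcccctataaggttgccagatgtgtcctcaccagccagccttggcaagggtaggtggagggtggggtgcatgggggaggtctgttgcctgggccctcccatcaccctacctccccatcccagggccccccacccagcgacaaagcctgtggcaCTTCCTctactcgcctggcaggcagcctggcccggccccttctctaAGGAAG

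The table matched 7 of the 10 genes with 8 windows, as Vegfa had a second one. A gene was counted if any of its windows held the motif, while the share it is set against is over single windows. AGGAAG was present in 4 of these 7 (Flt1, Tie1, Eng and Emcn), against 29.48% of the 32851 promoters searched over the same length, and CCGGAA in 1 (Kdr), against 12.03%. AGATAA was found in 1 (Vegfa), against 9.99%. The hypoxia core GCGTG was found in 4 of the 7 (Kdr, Flt1, Vegfa and Emcn), against 28.16%, and ACGTG in 1 (Vegfa), against 16.57%. For Vegfa both hypoxia cores lay before a second annotated start (chr17:46025164-46025413, minus strand), which is downstream of the start shown. Neither core is in the 250 bases before the start shown. Vegfa is thus counted for GCGTG and ACGTG through the downstream window alone. Kdr and Eng, whose 54 h arrays all lay below the 46 h arrays on the brightest probe set, had no searched motif in common in these windows. Each did hold an ETS core, CCGGAA in Kdr and AGGAAG in Eng, and this pair was picked by its values. These are matches of letters and not measured binding.

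All 9 endothelial genes had a probe set above the filter on low values (a mean over the 6 arrays above the 40th percentile of all probe sets, here 139 intensity units). This filter is a cut by rank and does not show that a transcript was present above background. Pecam1 read 210.4 units on 54h replicate 1, where the median of all probe sets was 208.1. Of the 16 probe sets 15 were above the filter, with values from 210.4 to 5101 units, well under the highest value of the table, 17879. Only the dimmer Cdh5 probe set, 1422047_at, was below. In bulk tissue fewer endothelial cells and less RNA per endothelial cell cannot be told apart.

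Between 54 h and 46 h no probe set of these genes passed the test. In limma on log2(intensity + 16), 0 of 15 had an adjusted p under 0.05, where 0.115% of the 26961 probe sets tested did. Without adjustment, at a limma p of 0.05, the count was 2 of 15, Kdr and the brightest Eng probe set, both lower at 54 h. This share, 13.3%, stands beside 10.1% of all probe sets tested at that level in either direction, made up of 4.34% higher and 5.75% lower. The 54 h and 46 h arrays were fully separated for the same 2 probe sets, again 13.3%, against 15.5% of all probe sets, made up of 6.48% higher and 9.05% lower. Over both directions together the shares are near the background. The median log2 change of the 15 was -0.02, equal at this precision to the -0.02 of all probe sets tested. Changes ran from -0.26 (Eng) to 0.23 (Vegfa), 8 below 0 and 7 above; of all probe sets tested 55.6% were below 0.

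**Figure D1:**
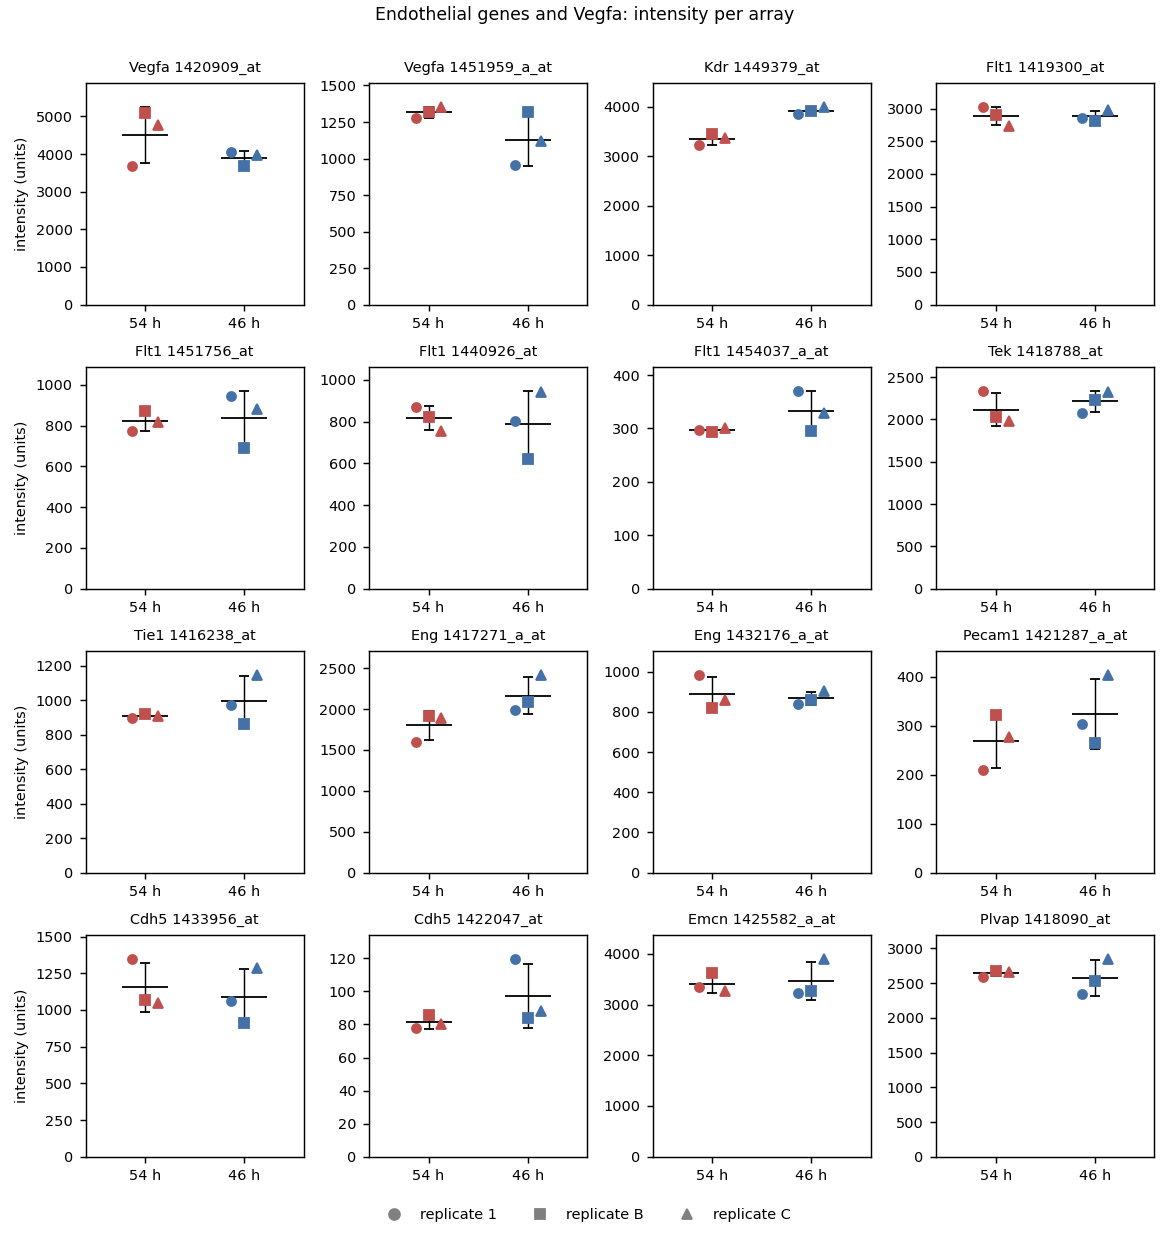
Intensity of the 16 probe sets on each array, with a linear axis from 0 in each panel; 54 h is on the left and 46 h on the right, symbols give the replicate, and the bar and whiskers are the mean and SD of 3 arrays. Only Kdr and Eng 1417271_a_at have 54 h arrays that all lie below the 46 h arrays.

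How tightly these data hold the genes in place can be read from the intervals. No 95% limma interval among the 15 probe sets reached a 2-fold change, while 14 of them also shut out a change of 1.5-fold. Their lowest and highest limits were -0.67 (Pecam1) and 0.49 (Vegfa). Over the 15 probe sets the SD within a time point lay between 1.29% and 22.1% of the mean, with a median of 5.8% at 54 h and 10.8% at 46 h.

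**Figure D2:**
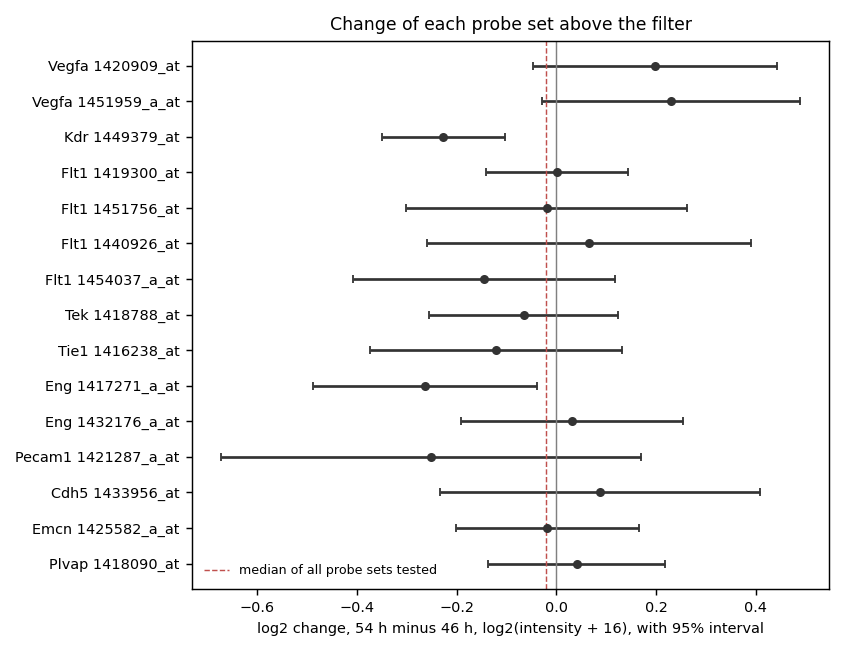
Log2 change (54 h minus 46 h) of the 15 probe sets above the filter with the 95% limma interval; the dashed line is the median of all probe sets tested, -0.02. The intervals of Kdr and of Eng 1417271_a_at lie below 0, and the other 13 include it.

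Vegfa, the principal growth factor for endothelium and a target of hypoxia-inducible factors, was read by 2 probe sets. The brighter, 1420909_at, gave 3671 units on 54h replicate 1, 5101 on B and 4759 on C, against 4041, 3673 and 3969.6 units on the 46 h arrays in the same letter order. On replicates B and C of 54 h it stood above every 46 h array, while 54h replicate 1 lay just under the lowest 46 h array. The log2 change was 0.20 ± 0.11 SE (limma adjusted p = 0.580). Without 54h replicate 1 it was 0.34, limma adjusted p = 0.0947, and without 54h replicate B it was 0.10. The second probe set, 1451959_a_at, which reads alternative transcripts of the gene, gave 1278, 1319 and 1353 units at 54 h, and 955, 1315 and 1119 units at 46 h. Here the 54 h arrays lay close together and 1 array, 46h replicate B, reached their range. Its log2 change was 0.23 ± 0.12 SE (limma adjusted p = 0.551). Dropping 46h replicate 1 gave 0.12 (limma adjusted p = 0.888), and dropping 46h replicate B gave 0.34 (limma adjusted p = 0.369). The 2 probe sets thus had changes of similar size, but not the same pattern: 54h replicate 1 differed from the 46 h mean by -0.08 on the brighter one and by 0.19 on the dimmer one.

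Kdr, the main signalling receptor for Vegfa, showed the smallest unadjusted p among these genes (0.00228 in limma). Its single probe set, 1449379_at, gave 3225, 3456 and 3367 units at 54 h, and 3854, 3909 and 4000.5 units at 46 h. All 3 arrays of 54 h were below all 3 of 46 h, and the spread within each time point was narrow: 3349 ± 116 units at 54 h and 3921 ± 74.2 units at 46 h (SD, n = 3 each). The log2 change was -0.23 ± 0.05 SE, with a 95% interval of -0.35 to -0.10, and did not pass (limma adjusted p = 0.204).

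Flt1, the higher-affinity receptor that also exists as a secreted decoy, was read by 4 probe sets, and the time points overlapped on each. The brightest, 1419300_at, gave 3018.5, 2905 and 2737 units at 54 h, and 2861, 2817 and 2972 units at 46 h. The groups overlapped throughout, and the log2 change was 0.00 ± 0.06 SE (limma adjusted p = 0.997), with a 95% interval of -0.14 to 0.14. The other 3 had log2 changes of -0.02 (1451756_at), 0.07 (1440926_at) and -0.14 (1454037_a_at), with SE of 0.12 to 0.14 and limma adjusted p of 0.725 or above. For all 4 Flt1 probe sets 46h replicate B was the lowest 46 h array. The sources used here do not say which of the 4 reads the secreted form.

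The angiopoietin receptor Tek (Tie2) and its partner Tie1, which modulates Tek signalling, had 1 probe set each. Tek gave 2339.6, 2029 and 1984 units at 54 h, and 2081, 2228 and 2331 units at 46 h, so the highest value of all was on a 54 h array and the groups overlapped. Its log2 change was -0.07 ± 0.08 SE (limma adjusted p = 0.844). Tie1 gave 895, 918 and 907 units at 54 h, and 973, 861 and 1148 units at 46 h. The 54 h arrays agreed within 11.7 units (SD, n = 3) and fell inside the wider 46 h spread of 145 units (SD, n = 3). The log2 change was -0.12 ± 0.11 SE (limma adjusted p = 0.767).

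Endoglin, the TGF-beta and BMP9 coreceptor encoded by Eng, had 2 probe sets that differed. The brighter, 1417271_a_at, gave 1600.0, 1909 and 1893 units at 54 h, and 1992, 2084 and 2418 units at 46 h. All 54 h arrays were below all 46 h arrays, though 54h replicate B and 46h replicate 1 were close. The log2 change was -0.26 ± 0.10 SE (unadjusted p = 0.0266, limma adjusted p = 0.429). It was -0.18 both without 54h replicate 1 and without 46h replicate C, where limma gave an unadjusted p above 0.05. The dimmer probe set, 1432176_a_at, gave 984, 819 and 859.7 units at 54 h, and 839.9, 857 and 902 units at 46 h, with the highest value on 54h replicate 1, the array that was lowest on the other probe set. Its log2 change was 0.03 ± 0.10 SE (limma adjusted p = 0.946). Within each array the brighter signal relative to the dimmer was lower at 54 h on all 3 arrays, by 0.29 on the log2 scale, and the changes of the Eng probe sets had opposite signs.

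Among the junction genes, VE-cadherin (Cdh5), the adhesive core of endothelial adherens junctions, gave 1348, 1066 and 1046 units at 54 h, and 1062, 913 and 1287.5 units at 46 h on probe set 1433956_at. The groups overlapped, and the log2 change was 0.09 ± 0.14 SE (limma adjusted p = 0.883). The Cdh5 probe set under the filter, 1422047_at, gave 77.9, 85.9 and 80.6 units at 54 h, and 119.7, 84.0 and 88.3 units at 46 h. Its log2 change of -0.20 was not tested. Pecam1 (CD31), which joins endothelial cells and is also present on platelets and leukocytes, gave 210.4, 322 and 278 units at 54 h, and 304, 266 and 404 units at 46 h. It was the most variable of the 10 genes across the arrays (SD 0.30 on the log2 scale over all 6), with its lowest value on 54h replicate 1 and its highest on 46h replicate C. The log2 change was -0.25 ± 0.19 SE (limma adjusted p = 0.696), about as large as that of Kdr with a far wider error. It was -0.09 without 54h replicate 1 or without 46h replicate C, and -0.38 without replicate B of either time point.

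Endomucin (Emcn), a surface sialomucin, gave 3353, 3616 and 3277 units at 54 h, and 3234, 3268 and 3901 units at 46 h. Its log2 change was -0.02 ± 0.08 SE (limma adjusted p = 0.962). Plvap, the protein of the fenestral diaphragm, gave 2591, 2676 and 2661 units at 54 h, and 2347, 2532 and 2850.1 units at 46 h. The 54 h arrays lay within the range of the 46 h arrays for both Tie1 and Plvap, and the log2 change of Plvap was 0.04 ± 0.08 SE (limma adjusted p = 0.903).

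**Figure D3:**
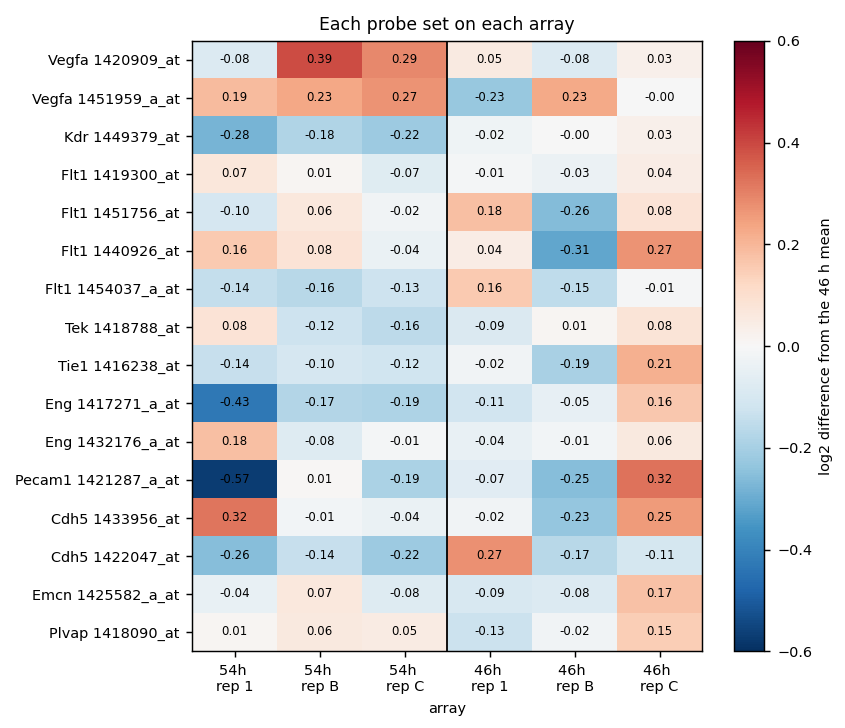
Log2 difference of each of the 16 probe sets on each array from its own 46 h mean, with 54 h arrays left of the line and 46 h arrays right of it; red is higher and blue lower. Kdr is lower on all 54 h arrays (-0.28, -0.18 and -0.22), whereas 54h replicate 1 reads Eng 1417271_a_at at -0.43 and Eng 1432176_a_at at 0.18.

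Of the 15 probe sets above the filter, 8 had their highest 54 h value on replicate B and 8 their lowest on replicate 1. At 46 h 11 had their highest value on replicate C and none their lowest there, while the lowest lay on replicate B for 8 and on replicate 1 for 7. The array median over all probe sets above the filter stood 0.03 above the 46 h mean on 46h replicate C, and at -0.03 on B and 0.00 on 1. Averaged over the 9 endothelial genes, by their brightest probe sets, the log2 difference from the 46 h mean was -0.11 on 54h replicate 1, -0.05 on B and -0.11 on C, against -0.06, -0.10 and 0.16 on the 46 h arrays. The time points overlapped and differed by -0.09 (exact permutation p = 0.3, two-sided). With 3 arrays against 3 the smallest p this test can give is 0.1, so neither this nor any value below could pass it.

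Each gene was then set against the mean of the other 8 endothelial genes on the same array, a comparison chosen with the values above known. Kdr had -0.19, -0.15 and -0.12 at 54 h, and 0.04, 0.10 and -0.15 at 46 h. Because 46h replicate C was high for the other genes and not for Kdr, the groups overlapped on this scale (difference -0.15, exact permutation p = 0.2). Plvap had 0.14, 0.12 and 0.18 at 54 h, and -0.07, 0.08 and -0.01 at 46 h, and Emcn had 0.07, 0.13 and 0.04 at 54 h, and -0.04, 0.02 and 0.02 at 46 h. For both the 54 h arrays lay above the 46 h arrays (exact permutation p = 0.1 each). Eng, by its brighter probe set, had -0.36, -0.14 and -0.08 at 54 h, and -0.06, 0.05 and 0.01 at 46 h, with no overlap in the other direction (exact permutation p = 0.1). On this scale 3 of the 9 genes thus separated the time points, Plvap and Emcn higher at 54 h and Eng lower. Set against the mean of the 9 endothelial genes in the same way, 18.6% of all probe sets above the filter separated the time points, 15.6% higher and 2.99% lower. With 9 genes these counts are a description.

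Vegfa, set against the mean of the 9 endothelial genes, stood at 0.02 on 54h replicate 1, 0.44 on B and 0.40 on C, and at 0.12, 0.01 and -0.13 on the 46 h arrays. Replicates B and C of 54 h were above all 46 h arrays and 54h replicate 1 was within their range (difference 0.29, exact permutation p = 0.2). As log2 ratios within an array, given as differences from the 46 h mean, Tek relative to Tie1 stood at 0.22, -0.02 and -0.03 at 54 h, and at -0.07, 0.21 and -0.14 at 46 h, and overlapped. Vegfa relative to Kdr had 0.20, 0.57 and 0.51 at 54 h, and 0.08, -0.08 and -0.0004 at 46 h. Kdr relative to Flt1 had -0.35, -0.19 and -0.14 at 54 h, and -0.01, 0.03 and -0.01 at 46 h. Both separated the time points (exact permutation p = 0.1 each). Each holds Kdr, which already separated them by itself.

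**Figure D4:**
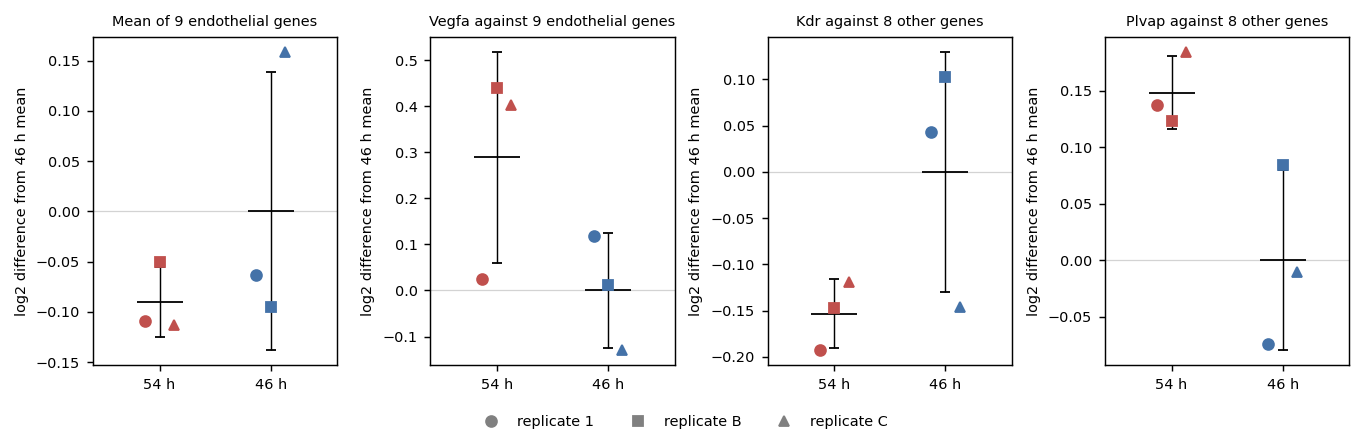
Mean of the 9 endothelial genes, Vegfa against that mean, and Kdr and Plvap each against the other 8 endothelial genes, all as log2 differences from the 46 h mean; 54 h is left of 46 h, symbols give the replicate, and bars and whiskers are the mean and SD of 3 arrays. The time points overlap in the first 3 panels, and the 54 h arrays of Plvap (0.14, 0.12 and 0.18) lie above its 46 h arrays (-0.07, 0.08 and -0.01).

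The wider vascular programme was described by 6 lists with 100 genes, of which 99 were measured and 94 lay above the filter, with a gene represented by its brightest probe set. None of the 94 passed limma over all probe sets (0, with the smallest adjusted p at 0.106), and 15 reached an unadjusted p of 0.05, 8 higher and 7 lower. That is 16% of the 94, beside the 10.1% of all probe sets tested, and the median log2 change was 0.02. Their 74 dimmer probe sets above the filter gave 9 at that level (12.2%, beside the same 10.1%), 5 higher and 4 lower, in 7 genes, and 0 that passed.

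Among other ligands 0 of 12 reached an unadjusted p of 0.05 on the brightest probe set. Probe sets disagreed for Figf (Vegfd), a ligand of the VEGF family, which is named after its values were seen. Its brightest had 0.08, while 1438953_at gave 1294, 1082 and 1107 units at 54 h, and 749.8, 805 and 867 units at 46 h, without overlap. The difference was 0.51 ± 0.10 SE on the log2 scale and did not pass (limma adjusted p = 0.125). The remaining Figf probe set, 1438954_x_at, had 0.47 ± 0.11 SE (limma adjusted p = 0.193). The placental growth factor gene Pgf, a ligand of Flt1, had a log2 change of 0.26 ± 0.14 SE, the pericyte-recruiting factor Pdgfb -0.18 ± 0.10 SE, and Angpt2, the context-dependent Tek ligand, -0.14 ± 0.12 SE. Vegfb, which binds Flt1, had -0.03. Of the 18 other receptors 2 higher and 1 lower had an unadjusted p under 0.05, where 4.34% of all probe sets tested were higher and 5.75% lower. The chemokine scavenger receptor Ackr3 (listed here under its older name Cxcr7) gave 2888, 3340 and 3182 units at 54 h, and 5049, 4015 and 4180.1 units at 46 h. Its groups did not overlap, and the log2 change was -0.49 ± 0.09 SE (limma adjusted p = 0.106). Cxcr4, which shares the ligand Cxcl12 with it, gave 1884, 2878 and 2427 units at 54 h, and 1419.9, 1655 and 1767 units at 46 h. These did not overlap either, in the opposite direction, the log2 change being 0.55 ± 0.15 SE (limma adjusted p = 0.252). The protein C receptor Procr had 0.27 ± 0.10 SE (limma adjusted p = 0.396). The coreceptor Nrp1, which presents Vegfa to Kdr, had 0.05 and the lymphatic receptor Flt4 0.12.

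The junction and adhesion list held 26 genes above the filter, 5 of them lower and 1 higher by unadjusted p. Beside this stand 5.75% lower and 4.34% higher of all probe sets tested, and the same shares apply to the lists that follow. The 5 lower genes included Esm1, a secreted proteoglycan of Vegfa-stimulated tip cells, with -0.36 ± 0.13 SE, and the adhesion receptor Clec14a with -0.35 ± 0.13 SE. The caveolar protein gene Cav1 was the 1 higher, with 0.40 ± 0.15 SE; limma adjusted p was 0.404 to 0.419 for these 3. The tight junction gene Cldn5 had 0.19 ± 0.11 SE and Vwf, the clotting factor stored in endothelium, 0.23 ± 0.19 SE. Transcription factors gave 2 higher (Foxc2 0.33 and Fli1 0.36) and 1 lower (Gata2 -0.21) of 17 at an unadjusted p of 0.05. In the Notch list Hes1, a target of the pathway, had 0.31 ± 0.13 SE and was the 1 of 6 at that level, while Notch1 had -0.23 and Jag2 -0.18. In the hypoxia list 2 of 15 were higher and 0 lower: Slc2a1, the glucose transporter GLUT1, with 0.39 ± 0.10 SE (limma adjusted p = 0.210), and the prolyl hydroxylase gene Egln3 with 0.27 ± 0.11 SE. Bnip3, also induced by hypoxia, had -0.11 ± 0.05 SE, and Hif1a and Epas1 had 0.10 and -0.02. Other probe sets, named after their values were seen, disagreed for Epas1, whose dimmer one had 0.59 ± 0.10 SE (limma adjusted p = 0.0781), and for Slc2a1, whose others had 0.28 and 0.05.

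**Figure D5:**
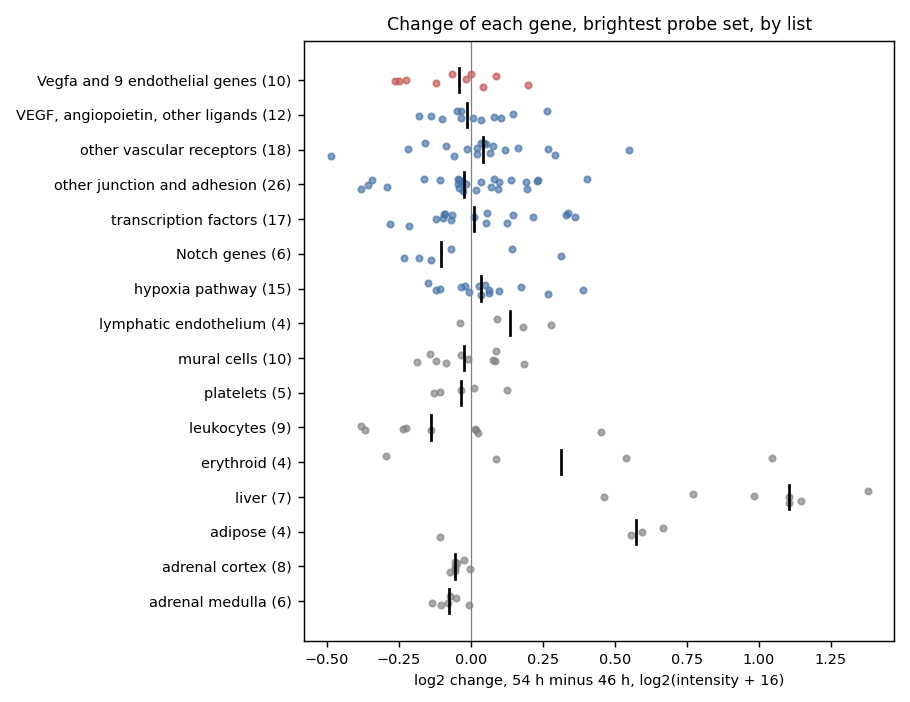
Log2 change (54 h minus 46 h) of each gene above the filter (brightest probe set), by list, with the number of genes in parentheses and the median as a black bar. The 10 genes described here and the vascular lists centre near 0, while liver, adipose and erythroid genes centre above it.

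Markers of other cells also differed between these arrays. Of 7 liver genes above the filter all 7 were higher at 54 h with a median log2 change of 1.10, 6 at an unadjusted p of 0.05, and 2 passed limma, Serpina1b with 1.10 (adjusted p = 0.0343) and Cyp3a11 with 1.15 (adjusted p = 0.0424), each a member of a family of similar genes. They had a summed signal over the 8 measured of 7844 to 11735 units at 54 h and 3533 to 5603 units at 46 h. In adipose tissue 3 of 4 genes were higher, all 3 at an unadjusted limma p of 0.05, and the median log2 change was 0.57. The summed signal of the adipose genes was 12816 to 15620.0 units at 54 h and 10102 to 14162 units at 46 h. Of 9 leukocyte genes 5 were lower and 4 higher, with a median log2 change of -0.14. At an unadjusted limma p of 0.05, 3 of the 9 were lower and 1 higher. Of all probe sets tested 5.75% were lower and 4.34% higher at that level. The summed signal of the leukocyte genes was 17177 to 17972 units at 54 h and 19325 to 20052 units at 46 h, which do not overlap. The mean log2 difference of these genes from the 46 h mean did overlap. It was -0.063, -0.140 and -0.080 at 54 h, and -0.044, -0.067 and 0.111 at 46 h (replicates 1, B and C). Mural cells, which wrap the vessels, had 4 of 10 genes higher and 6 lower, with 12915 to 13897 units at 54 h and 12717 to 13497 units at 46 h. Platelets had 2 of 5 higher and 3 lower, with 2066 to 2379.9 units at 54 h and 2119 to 2484 units at 46 h, sums that include Ppbp, which lay below the filter. Lymphatic endothelium had 3 of 4 higher and 1 lower, with 1682 to 1936 units at 54 h and 1514 to 1726 units at 46 h. Erythroid genes had 3 of 4 higher, of which the beta globin gene Hbb-b2 passed with 1.04 (limma adjusted p = 0.0288). Their summed signal was 2020.3 to 2457 units at 54 h and 1497 to 1942 units at 46 h. None of these markers was at 0 on all arrays. All 8 cortex genes and all 6 medulla genes had log2 changes below 0, with medians of -0.05 and -0.08. Liver and fat contain capillaries and leukocytes carry Pecam1, and the part of any of these cells in the values of the 10 genes was not tested.

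Pecam1, whose profile varied most, was compared with all other probe sets above the filter that name 1 gene, 23202 in all. By the root mean square difference of centred log2 profiles over the 6 arrays, the nearest were Ubr1 (0.042), Ifngr2 (0.045), Fgfr1 (0.049), Rnf14 (0.049) and Coro1c (0.052). None of the 5 passed limma (adjusted p of 0.617 or above). They were picked as the smallest of 23202 distances over only 6 arrays, so their closeness is a description. Whether they share regulation with Pecam1 was not tested.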

How the data were processed

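Total RNA from whole adrenal glands was extracted with a column kit and labelled with biotin, per the labels' protocols, and hybridised to 1 Affymetrix mouse array per sample. The authors deposited 1 linear intensity per probe set and array; how it was summarised, background-corrected and normalised is not given in the sources used here, and dim signals carry more background. From 45001 probe sets, 64 controls, 1 without values and 1 with a damaged value were left out. Gene names came from the platform annotation, and 34848 probe sets named exactly 1 gene.

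Values were taken as log2(intensity + 16), which understates changes of dim probe sets. Array medians differed by 0.0728, under the limit of 0.1, so no scaling was added. The 26961 probe sets with a mean above the 40th percentile were fitted in limma 3.58.1 under R 4.3.3 (eBayes with trend, two-sided, Benjamini-Hochberg over all of them, threshold 0.05), with 3 arrays per time point. The labels name no animals, so p-values reflect sample-to-sample spread that may be partly technical. Time and any difference in handling between the time points cannot be told apart. The procedure was tested on simulated data with independent noise. That check required recovery only of changes larger than any seen for these genes. Smaller changes were also simulated, but passing did not depend on them and their recovery is not reported here. Passing the check thus does not tell whether smaller changes would be found. Python 3.11.15 and matplotlib 3.10.9 made tables and plots.

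Named were the 10 genes with every probe set, up to 3 genes with the smallest p and up to 2 well-known genes of each vascular list, and the 5 nearest profiles. Lists of other tissues are given as sums and counts. Single genes of these lists were named only where they passed limma, a choice made from their values, and Ppbp was named as below the filter. The members, lists, tests and alternatives were chosen with earlier results of these data known. Alternatives were other scalings, filters, offsets and variance models, the replicate letter as a block, averaging a gene's probe sets, and dropping each array in turn.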

Additional observations from a re-analysis of the deposited data

How the results depend on the processing

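No probe set of the 10 genes passed in limma (0) under any of the alternatives run. At an unadjusted p of 0.05 the count was 1 without 46h replicate C and 3 without 46h replicate B. In all the others it was 2, so leaving out single arrays gave 1 to 3. The members of this count changed. Without 54h replicate 1 the brighter Eng probe set left it (limma unadjusted p = 0.0934). The brighter Vegfa probe set, higher at 54 h, entered (limma unadjusted p = 0.000535). With the mean over a gene's probe sets Eng also left (limma unadjusted p = 0.193) and Vegfa entered, higher (limma unadjusted p = 0.0344). Without 46h replicate B the added one was the dimmer Vegfa probe set, also higher (limma unadjusted p = 0.0103). Kdr kept its direction and stayed under an unadjusted p of 0.05 in all 16 alternatives, with log2 changes of -0.25 to -0.20 and limma adjusted p of 0.120 to 0.761. Eng had -0.32 to -0.12, the smallest size being the mean of its probe sets, and Vegfa 0.10 to 0.34. The median of the probe sets stayed between -0.06 and 0.02.

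Changes near 0 turned sign, none of them past the test. With the mean over its probe sets Flt1 had -0.024 and Cdh5 -0.058. The Cdh5 mean takes in 1422047_at, the probe set under the filter. That probe set had -0.20 by itself, while the brighter Cdh5 probe set had 0.09. With arrays centred on their medians Emcn had 0.0091 and Flt1 1451756_at 0.0074, and with quantile normalization Flt1 1451756_at had 0.0029. Leaving out single arrays gave -0.032 to 0.039 for Flt1, -0.029 to 0.22 for Cdh5, -0.065 to 0.069 for Emcn, -0.023 to 0.12 for Plvap, -0.091 to 0.20 for Flt1 1440926_at, -0.15 to 0.070 for Flt1 1451756_at and -0.044 to 0.085 for Eng 1432176_a_at. Without a turn of sign it gave -0.22 to -0.013 for Tie1, -0.14 to -0.021 for Tek and -0.22 to -0.066 for Flt1 1454037_a_at. The cause was not tested.

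Over all probe sets the count past limma was 31; it was 47 with quantile normalization, 50 with centred arrays, 48 with a filter at the 60th percentile, 3 without a variance trend, 61 with a robust fit and 2 to 66 when single arrays were left out. The replicate block gave 45 probe sets over the whole table and 0 of the 10 genes. The letters were not taken as pairs because the labels do not say that a letter marks a shared animal. Deviations of same-lettered arrays from the mean of their time point correlated at -0.06, -0.41 and -0.49 for 1, B and C. Among the other combinations 54h replicate C with 46h replicate B had 0.46 and 54h replicate B with 46h replicate C had 0.38. Deviations from a shared mean depend on one another, so these correlations do not decide on pairing. The number of arrays limits the precision.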
